A study of Mus musculus with 12 samples.

Results

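The genes examined here are 9 markers of microglia and macrophages, Aif1, Tmem119, Sall1, Siglech, Trem2, Tyrobp, Mrc1, Cd163 and Itgam, measured in mice in the trigeminal ganglion (TG) and the caudal spinal trigeminal nucleus (nucleus caudalis, Sp5C). They were taken by their symbol from the deposited table of protein-coding transcripts, which gave 26 of its 57109 transcripts. These lay under 10 of its 21981 gene identifiers, since the symbol Itgam is given to another identifier as well. The ganglion holds the cell bodies of the sensory neurons of face and jaw, and the nucleus is the part of the brainstem that receives their pain signals. The 4 groups had 3 libraries each: STG and CTG were ganglia, and SSp5C and CSp5C were nucleus. All came from C57BL/6 mice, an inbred strain, at 8 weeks of age and with no altered gene named in the labels. The series concerns lasting inflammatory pain of the jaw joint, but its labels give neither the meaning of S and C nor an agent, so both letters stay unexplained here and differences between them are C minus S. The labels also do not say whether libraries came from separate animals or from pools, so p-values reflect only how far these samples differ, and part of that spread may be technical.

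Microglia are the resident macrophages of the brain and spinal cord, and other macrophages live in the meninges, around vessels and in peripheral nerves and ganglia. All of them share a core programme of lysosomal, complement and Fc receptor genes, onto which each tissue adds its own identity genes. In the central nervous system the transcription factor Sall1 maintains the microglial state, and Tmem119 and Siglech mark it, whereas the mannose receptor Mrc1 and the haemoglobin scavenger receptor Cd163 are typical of macrophages at borders and in peripheral tissue. Trem2, a lipid-sensing receptor, signals through the adaptor Tyrobp, and Itgam (CD11b) and Aif1 (IBA1) are found in both kinds of cell.

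Marker levels went with the tissue labels. All 6 genes of a list of ganglion neurons, Schwann cells and satellite glia were higher in TG, against 36.2% of all genes tested. All 6 of a list of central neurons and glia were higher in Sp5C, against 35%. Avil, Prx, Scn10a, Gad1, Glra1 and Slc6a5 had a mean under 1 FPKM in their lower tissue. They passed the filter of a mean of 1 FPKM only through the other tissue, so their direction is no support. The libraries correlated at r = 0.967 to 0.989 within a tissue and at 0.765 to 0.803 between tissues. The values are FPKM, fragments relative to the length of the transcript and the size of the library, which hide the read numbers, so depth is unknown. The libraries stood apart in other ways. The summed level of 13 neutrophil and bone marrow genes was 889 FPKM in CTG replicate 1 and 297 in CTG replicate 3, against 4.32 to 34.5 in the other TG libraries. The summed level of 6 pituitary hormone genes was 2849 FPKM in STG replicate 1 and at most 51.5 in every other library.

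The start regions of 4 of the genes are printed here because these genes carry the contrasts below: Sall1 and Siglech as central markers, Mrc1 as the peripheral one and Itgam as a shared one. The windows are those of RefSeq on GRCm38.p6, from 250 bases before to 50 bases after the annotated start, 5′ to 3′ on the strand of the gene. They lie at chr8:89044113-89044412 on the minus strand for Sall1, and on the plus strand at chr7:55767934-55768233 for Siglech, chr2:14229164-14229463 for Mrc1 and chr7:128062390-128062689 for Itgam. Capitals mark GAGGAA or its reverse complement TTCCTC, letters of the purine-rich element bound by PU.1 (Spi1), the factor that specifies macrophages.
Sall1: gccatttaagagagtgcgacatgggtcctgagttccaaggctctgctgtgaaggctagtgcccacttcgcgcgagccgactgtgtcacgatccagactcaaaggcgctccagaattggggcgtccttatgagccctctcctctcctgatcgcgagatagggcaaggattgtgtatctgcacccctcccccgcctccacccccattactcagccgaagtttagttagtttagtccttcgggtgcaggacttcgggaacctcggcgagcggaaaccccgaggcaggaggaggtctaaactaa
Siglech: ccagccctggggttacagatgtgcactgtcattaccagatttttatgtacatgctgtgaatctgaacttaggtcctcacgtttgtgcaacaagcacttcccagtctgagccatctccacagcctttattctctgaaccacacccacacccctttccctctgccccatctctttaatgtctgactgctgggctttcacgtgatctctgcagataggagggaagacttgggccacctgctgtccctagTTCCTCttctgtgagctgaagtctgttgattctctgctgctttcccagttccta
Mrc1: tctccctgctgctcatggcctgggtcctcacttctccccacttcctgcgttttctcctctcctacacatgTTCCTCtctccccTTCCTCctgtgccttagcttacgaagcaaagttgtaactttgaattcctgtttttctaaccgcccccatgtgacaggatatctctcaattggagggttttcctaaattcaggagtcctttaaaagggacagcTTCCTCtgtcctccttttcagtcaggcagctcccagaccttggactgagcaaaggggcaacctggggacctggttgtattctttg
Itgam: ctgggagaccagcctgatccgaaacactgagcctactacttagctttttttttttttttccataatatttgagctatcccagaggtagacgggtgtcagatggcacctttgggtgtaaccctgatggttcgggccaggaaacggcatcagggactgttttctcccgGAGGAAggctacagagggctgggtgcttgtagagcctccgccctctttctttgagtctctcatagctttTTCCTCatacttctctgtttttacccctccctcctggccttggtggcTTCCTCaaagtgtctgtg
The motif stood 3 times in the window of Mrc1, 3 times in that of Itgam and 1 time in that of Siglech. Windows were found for 7 of the 9 genes, and 5 of them held the motif on either strand (Mrc1, Siglech, Itgam, Aif1 and Trem2). The window of Aif1, chr17:35176003-35176302 on the minus strand, held the start of none of its transcripts in the deposited table. The starts of Aif1-201 and Aif1-203, which carried most of its level, are at 35173278 and 35172819. It was not in the window of Cd163 or in any of the 3 listed for Sall1. Of all 32851 windows of 300 bases, 28.3% held it, which is a share of windows and not of genes. A match is a run of letters and not a measured binding site.

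Sall1, Tmem119 and Siglech, which mark resident microglia, were lower in TG than in Sp5C, and the border macrophage receptor Mrc1 was higher in TG. The mean of Sall1 was 13.8 times higher in Sp5C, at 6.96 ± 0.846 FPKM against 0.504 ± 0.213 (SD, n = 6 per tissue). The mean of Mrc1 was 4.39 times higher in TG, at 8.50 ± 0.775 FPKM against 1.93 ± 1.36. The genes that both kinds of cell use, Aif1, Itgam, Tyrobp and Trem2, did not pass the test between the tissues. In tissue RNA, fewer cells of a type and less RNA per cell cannot be told apart. Whether other cells of Sp5C add to the level of these markers was not tested. Within Sp5C, Sall1 ranged only from 5.83 to 8.08 FPKM, while the summed level of 19 genes common to macrophages ranged from 79.0 to 293.

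**Figure D1:**
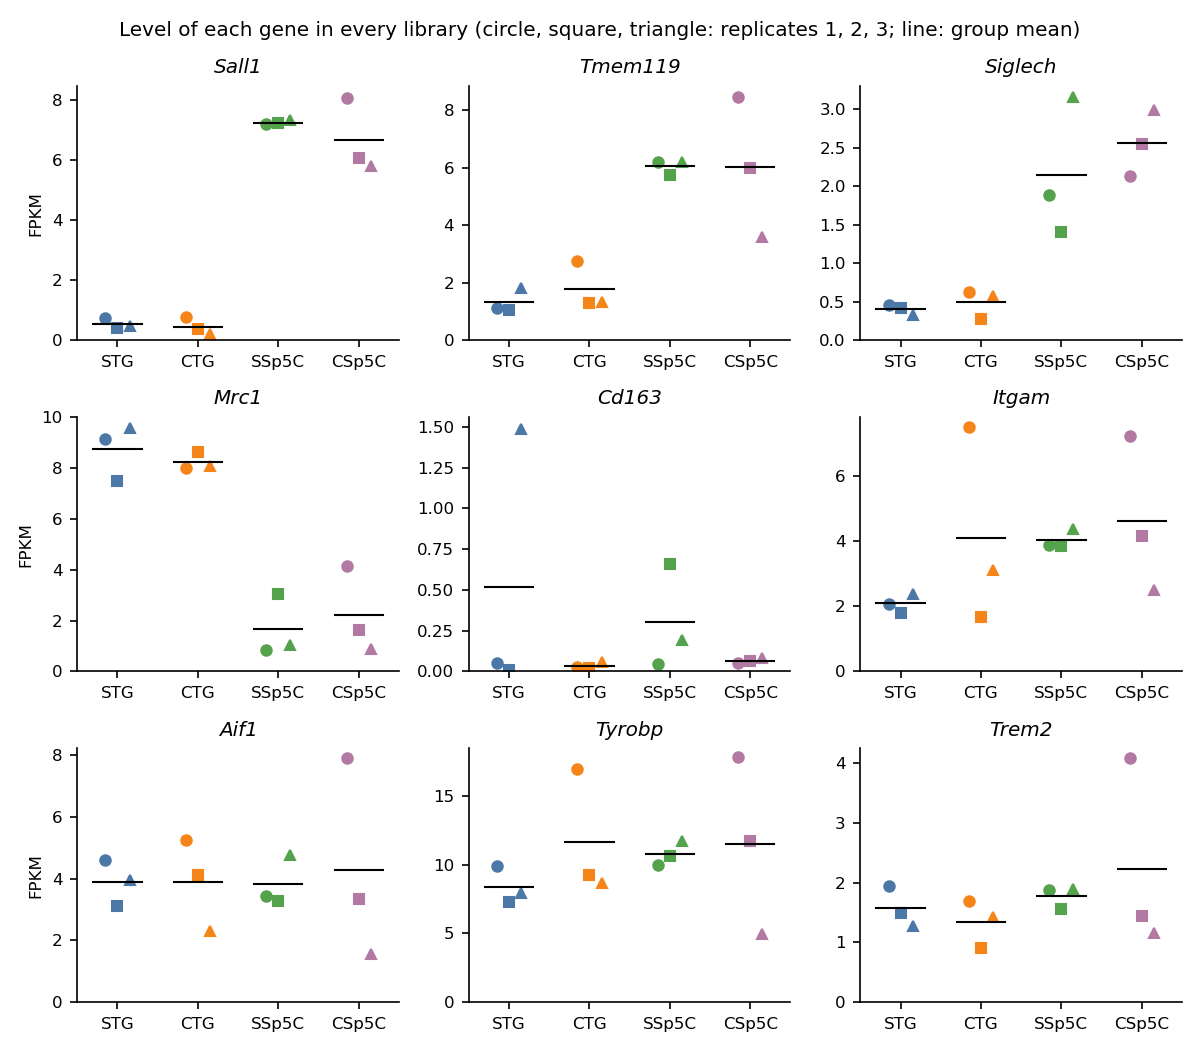
Level in FPKM (vertical axes, each from 0) of the 9 genes in the 12 libraries, with one panel per gene, one column per group, one point per library and a line at each group mean. Sall1, Tmem119 and Siglech are lower in every TG library than in every Sp5C library, Mrc1 is higher in every TG library, and the other 5 genes overlap between the tissues.

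Sall1 (ENSMUSG00000031665, chromosome 8, 89027235 to 89044162, minus strand, GENCODE M21 on GRCm38), a zinc finger repressor of inflammatory genes in microglia, stood at 0.732, 0.415 and 0.491 FPKM in STG and 0.775, 0.382 and 0.226 in CTG. It stood at 7.20, 7.23 and 7.34 FPKM in SSp5C and 8.08, 6.09 and 5.83 in CSp5C. The tissues lay far apart, as each TG library was under 1 FPKM. The difference of TG minus Sp5C was −2.41 on the log2(FPKM + 1) scale (SE 0.104, adjusted p = 1.99e-09, limma with Benjamini-Hochberg adjustment over all genes), and that scale understates the change of low genes.

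Tmem119 (ENSMUSG00000054675, chromosome 5, 113793729 to 113800516, minus strand), a surface protein of microglia, stood at 1.13, 1.06 and 1.82 FPKM in STG and 2.75, 1.29 and 1.33 in CTG. In SSp5C it stood at 6.21, 5.75 and 6.19 FPKM, and in CSp5C at 8.48, 5.99 and 3.60. The lowest Sp5C library, CSp5C replicate 3, was still above the highest TG library, CTG replicate 1. The log2 difference was −1.46 (SE 0.182, limma adjusted p = 2.4e-05), and the mean was 3.86 times higher in Sp5C.

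Siglech (ENSMUSG00000051504, chromosome 7, 55768178 to 55778925, plus strand), a sialic acid receptor that signals through Tyrobp, stood at 0.458, 0.422 and 0.334 FPKM in STG and 0.624, 0.285 and 0.573 in CTG. It stood at 1.89, 1.41 and 3.16 FPKM in SSp5C and 2.14, 2.55 and 3.00 in CSp5C. The log2 difference was −1.19 (SE 0.129, limma adjusted p = 6.08e-06). Sall1 and Siglech passed the filter of a mean of 1 FPKM only through Sp5C, where they are high, so the 3 lower calls are not a tally over genes free to go either way.

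Mrc1 (ENSMUSG00000026712, chromosome 2, 14229392 to 14332057, plus strand), which binds mannose-bearing glycoproteins, stood at 9.15, 7.50 and 9.58 FPKM in STG and 8.02, 8.65 and 8.09 in CTG. In Sp5C it ranged more widely, with 0.856, 3.06 and 1.05 FPKM in SSp5C and 4.13, 1.61 and 0.887 in CSp5C. The highest Sp5C library, CSp5C replicate 1, remained below the lowest TG library. The log2 difference was 1.81 (SE 0.251, limma adjusted p = 6.9e-05).

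Cd163 (ENSMUSG00000008845, chromosome 6, 124304656 to 124330527, plus strand) was near 0 in most libraries. It stood at 0.0519, 0.00845 and 1.49 FPKM in STG, 0.0288, 0.0186 and 0.0561 in CTG, 0.0481, 0.661 and 0.191 in SSp5C, and 0.051, 0.0657 and 0.0829 in CSp5C. STG replicate 3 and SSp5C replicate 2 lay far above the others of their tissue. The gene was under the filter in every comparison. Without the filter its log2 difference between tissues was 0.04 (limma adjusted p = 0.897).

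Of the 8 genes tested between the tissues, 1 was higher and 3 lower in TG, against a background in which 71.2% of the 13081 genes tested were called, 36.2% higher in TG and 35% lower. The tissues did not overlap for 4 of the 8, against 53.7% of all genes tested. Neither share stands above the background, so what the genes show is their directions and sizes and not an excess of calls. The median log2 difference of the 8 was −0.36, against 0.00934 over all genes tested.

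Tyrobp (ENSMUSG00000030579, chromosome 7, 30413760 to 30417585, plus strand), the adaptor that carries the signal of Trem2, Siglech and other receptors, had the highest mean of the 9 genes in both tissues. It stood at 9.93, 7.29 and 7.91 FPKM in STG, 16.9, 9.26 and 8.70 in CTG, 10.0, 10.6 and 11.7 in SSp5C, and 17.8, 11.7 and 4.98 in CSp5C. The tissues overlapped, and replicate 1 of CTG and of CSp5C was the highest of its tissue. The log2 difference was −0.12 (SE 0.259, limma adjusted p = 0.707). It was −0.34 in the S libraries alone, where it passed (adjusted p = 0.0351), 0.11 in the C libraries alone (adjusted p = 0.859) and 0.070 without CSp5C replicate 1 (adjusted p = 0.795).

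Trem2 (ENSMUSG00000023992, chromosome 17, 48346401 to 48354147, plus strand) stood at 1.94, 1.49 and 1.28 FPKM in STG, 1.69, 0.912 and 1.43 in CTG, 1.88, 1.57 and 1.89 in SSp5C, and 4.09, 1.44 and 1.16 in CSp5C. CSp5C replicate 1 alone was above 2 FPKM. The log2 difference between tissues was −0.24 (SE 0.192, limma adjusted p = 0.276).

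Itgam (ENSMUSG00000030786, chromosome 7, 128062640 to 128118491, plus strand), the alpha chain of complement receptor 3, which neutrophils carry as well, stood at 2.08, 1.80 and 2.37 FPKM in STG, 7.51, 1.66 and 3.11 in CTG, 3.88, 3.86 and 4.39 in SSp5C, and 7.23, 4.16 and 2.51 in CSp5C. All 3 SSp5C libraries were above all 3 STG libraries, but CTG replicate 1 was the highest of the 12. The log2 difference was −0.47 over all libraries (SE 0.273, limma adjusted p = 0.148), −0.70 (adjusted p = 0.0118) without CTG replicate 1, and −0.85 (adjusted p = 0.00863) without CTG replicates 1 and 3, the libraries with high neutrophil genes. It was −0.71 in the S libraries alone (adjusted p = 0.000533) and −0.22 in the C libraries alone (adjusted p = 0.721). The part of the neutrophil genes in the level of Itgam was not tested. The table gives the symbol Itgam to another identifier as well, ENSMUSG00000108596, which GENCODE M21 calls Gm49368 and which overlaps Itgam on the same strand (128062683 to 128128160). It was listed at 0 in 9 of the 12 libraries and at 0.105 FPKM or less in the others, and since both genes share exons the split of reads between them is uncertain.

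Aif1 (ENSMUSG00000024397, chromosome 17, 35170991 to 35176068, minus strand), an actin-binding protein used to stain microglia, stood at 4.59, 3.11 and 3.94 FPKM in STG, 5.24, 4.13 and 2.29 in CTG, 3.43, 3.28 and 4.77 in SSp5C, and 7.90, 3.33 and 1.57 in CSp5C. The lowest and the highest library were both of CSp5C. The log2 difference was 0.02 (SE 0.275, limma adjusted p = 0.943), and its sign turned with the library left out, from −0.19 without CSp5C replicate 3 to 0.26 without CSp5C replicate 1.

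**Figure D2:**
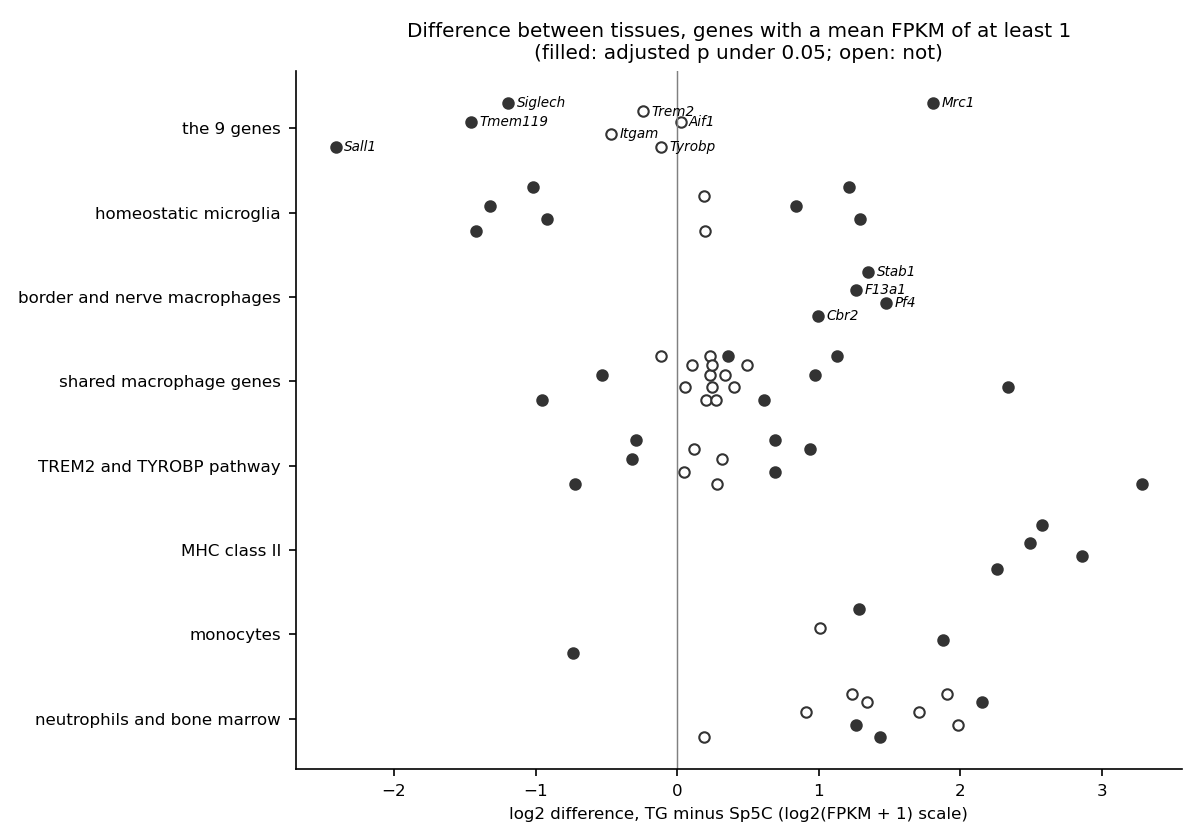
Difference of TG minus Sp5C on the log2(FPKM + 1) scale (horizontal axis) for each gene with a mean of at least 1 FPKM, in rows for the 9 genes and for lists of related genes, with filled points for an adjusted p under 0.05 and the vertical position within a row without meaning. Sall1, Tmem119 and Siglech lie at −2.41, −1.46 and −1.19, Mrc1 at 1.81, and the 4 tested genes of the border macrophage list and the 4 of MHC class II lie to the right of 0.

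Other marker genes of resident microglia did not all follow Sall1, Tmem119 and Siglech. Of 10 listed homeostatic genes 9 were tested, of which 4 were lower in TG, 3 were higher and 2 did not pass. The purine receptors P2ry12 (2.70 ± 0.784 FPKM in TG against 8.38 ± 2.44 in Sp5C, log2 difference −1.32) and P2ry13 (0.711 ± 0.252 against 2.50 ± 0.781, −1.02) and the lysophospholipid receptor Gpr34 (1.02 ± 0.202 against 2.88 ± 0.855, −0.92) were lower in TG, as was Selplg (−1.42), the ligand of P-selectin. Crybb1, a crystallin (3.61 ± 0.637 against 0.900 ± 0.319, log2 difference 1.29), Olfml3, a secreted matrix protein (4.45 ± 1.70 against 1.32 ± 0.441, 1.21), and Fcrls (0.84) were higher in TG. Cx3cr1, the fractalkine receptor (log2 difference 0.19, limma adjusted p = 0.511), was among those that did not pass. Its TG groups were unlike, at 4.28 ± 2.41 FPKM in STG and 0.855 ± 0.208 in CTG, against 1.67 ± 0.582 in Sp5C. The list's median log2 difference was 0.19. P2ry13 and Crybb1 had a mean under 1 FPKM in their lower tissue and passed the filter only through the other, so their direction is no support. The same holds, among the genes named from the lists that follow, for Cbr2, H2-Ab1, Syk, Sall3, Siglec1, Siglece, Ccr2, Chil3, Plac8, Mpo, Ltf, Elane and Mcpt4.

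Of 12 border and nerve macrophage genes only 4 reached the filter, and these 4 were called higher in TG, with Pf4, a chemokine, at 5.12 ± 1.46 FPKM against 1.24 ± 0.656 (log2 difference 1.48), Stab1, a scavenger receptor, at 7.75 ± 1.12 against 2.54 ± 1.09 (1.35), F13a1, a transglutaminase (1.26), and Cbr2, a carbonyl reductase (0.99). Without the filter 8 of the 12 were called higher in TG, and with a mean of at least 5 FPKM only 1 was. Genes of MHC class II, which present antigen, were higher in TG for each of the 4 tested, with a median log2 difference of 2.54. Cd74, the invariant chain, had 52.4 ± 13.4 FPKM in TG against 8.36 ± 8.00, and H2-Ab1 had 7.86 ± 2.57 against 0.973 ± 1.15. H2-Aa (log2 difference 2.49) and H2-Eb1 (2.58) were also higher.

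Of 19 tested genes common to macrophages, 5 were higher in TG, 2 were lower and 12 did not pass, with a median log2 difference of 0.25. Lyz2, lysozyme of macrophages and neutrophils, was higher in TG (2.33), as were Ptprc, the leukocyte antigen CD45 (1.13), and Adgre1, the antigen F4/80 (0.97). Ctss, a lysosomal protease, was lower (−0.95), and so was Csf1r, the receptor that macrophages need to survive (−0.53). Without CTG replicates 1 and 3 the counts were 3 higher and 1 lower, and without STG replicate 1 as well they were 2 and 0. The higher count was 10 without CSp5C replicate 1, 3 without any 1 of STG 1, STG 3, CTG 1, SSp5C 1, SSp5C 3, CSp5C 2 and CSp5C 3 (group and replicate), and the lower count was 1 without STG 2 or CTG 3.

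Genes listed with the Trem2 and Tyrobp pathway, among them ligands and other receptors, had mixed levels. Of 11 tested genes of this list, 4 were higher in TG, 3 were lower and 4 did not pass. The part of other cells of the tissue in their levels was not tested. Cd9, a tetraspanin that Schwann cells also carry in quantity, was higher in TG (422 ± 26.1 against 42.9 ± 6.47 FPKM, log2 difference 3.28), as were the lipoprotein Apoe (0.94), the lysosomal protease Ctsd (0.69) and the kinase Syk (0.69). Csf1, the ligand of Csf1r, was lower in TG (−0.72), as were Lpl, a lipase (−0.32), and Axl, a receptor for dying cells (−0.29). Plcg2, Vav1, Inpp5d and Spp1 did not pass (log2 differences between 0.05 and 0.31). Of the family relatives of the 9 genes, 6 were tested. The factors Sall3 (0.0522 ± 0.0418 FPKM in TG against 6.01 ± 0.889 in Sp5C) and Sall2 (7.83 ± 0.281 against 21.9 ± 1.37) were lower in TG, as was Sall1, and Siglec1, Siglece and the collagen receptor Mrc2 were higher. Of the haemoglobin and iron genes, Hmox1, which degrades the haem that Cd163 takes up, was higher in TG (1.11), Slc40a1, the iron exporter, was lower (−1.29) and 5 did not pass.

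Some markers of other blood cells also differed between the tissues. Of the monocyte genes Ccr2 (log2 difference 1.28) and Plac8 (1.88) were higher and Ly6c2 (−0.73) lower in TG, and Chil3 did not pass. Of 10 neutrophil and bone marrow genes tested, 3 were higher in TG (Mpo 1.43, Ltf 2.15 and Elane 1.26), the tissues overlapped for all 10, and their summed level ranged from 4.32 to 889 FPKM in TG and from 4.98 to 21.6 in Sp5C. That count was 0 without CTG replicate 1, 9 without CTG replicate 2, 2 without STG replicate 2, STG replicate 3 or SSp5C replicate 2, and 1 without any other single library, with adjusted p of up to 0.0714 for Ltf and 0.0708 for Elane. Mcpt4, a mast cell protease, was higher in TG, at 2.65 ± 1.40 FPKM, and was listed at 0 in 5 of 6 Sp5C libraries and at 0.031 FPKM in the other. The part of these cells in the tissue differences was not tested.

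The order of the genes by level also differed with the tissue. On the FPKM scale, which is per length, the order of mean levels in TG was Tyrobp, Mrc1, Aif1, Itgam, Tmem119, Trem2, Sall1, Siglech and Cd163. Only the gaps between Mrc1 and Aif1 and between Trem2 and Sall1 exceeded the sum of both SDs. In Sp5C the order was Tyrobp, Sall1, Tmem119, Itgam, Aif1, Siglech, Trem2, Mrc1 and Cd163, and only the gap between Mrc1 and Cd163 exceeded it.

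The comparison of the letters within each tissue gave no called difference for any of the 9 genes that could be tested. Of 6 genes tested in TG 0 passed, against a background of 0.00775% of 12906 genes (1 gene), with log2 differences of C minus S from −0.14 to 0.56 and limma adjusted p of 0.96 to 0.994. Of 8 tested in Sp5C 0 passed, against 0.0315% of 12690 genes (4 genes), with differences from −0.12 to 0.24 and adjusted p of 0.931 to 0.993. At an unadjusted p under 0.05 there were 0 of the 6 genes tested in TG and 0 of the 8 in Sp5C. Over all genes 606 (4.7%) and 637 (5.02%) were there. The groups overlapped for each gene tested, and over all genes they did not overlap for 10.8% in TG and 10.9% in Sp5C. A missed threshold does not show that S and C are alike.

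The highest differences in TG were those of Itgam and Tyrobp. Itgam averaged 2.09 ± 0.286 FPKM in STG and 4.10 ± 3.05 in CTG (SD, n = 3 each), with a log2 difference of 0.56 (SE 0.406). Without CTG replicates 1 and 3 it was −0.21, a value that sets CTG replicate 2 alone against 3 libraries. Tyrobp averaged 8.38 ± 1.38 and 11.6 ± 4.60 FPKM (log2 difference 0.38, SE 0.251). Mrc1 was the steadiest in TG, at 8.74 ± 1.10 and 8.25 ± 0.346 FPKM (−0.07, SE 0.0948). In Sp5C the spread within CSp5C exceeded that within SSp5C for 7 of the 9 genes, with Tyrobp at 10.8 ± 0.877 FPKM in SSp5C and 11.5 ± 6.42 in CSp5C. The difference of the effects of the letter between the tissues was tested for 8 genes, and 0 passed (0 of 13081 over all genes, 708 or 5.41% at an unadjusted p under 0.05). Over the 13 lists 0 genes were called for the letter in TG, in Sp5C or in the difference.

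**Figure D3:**
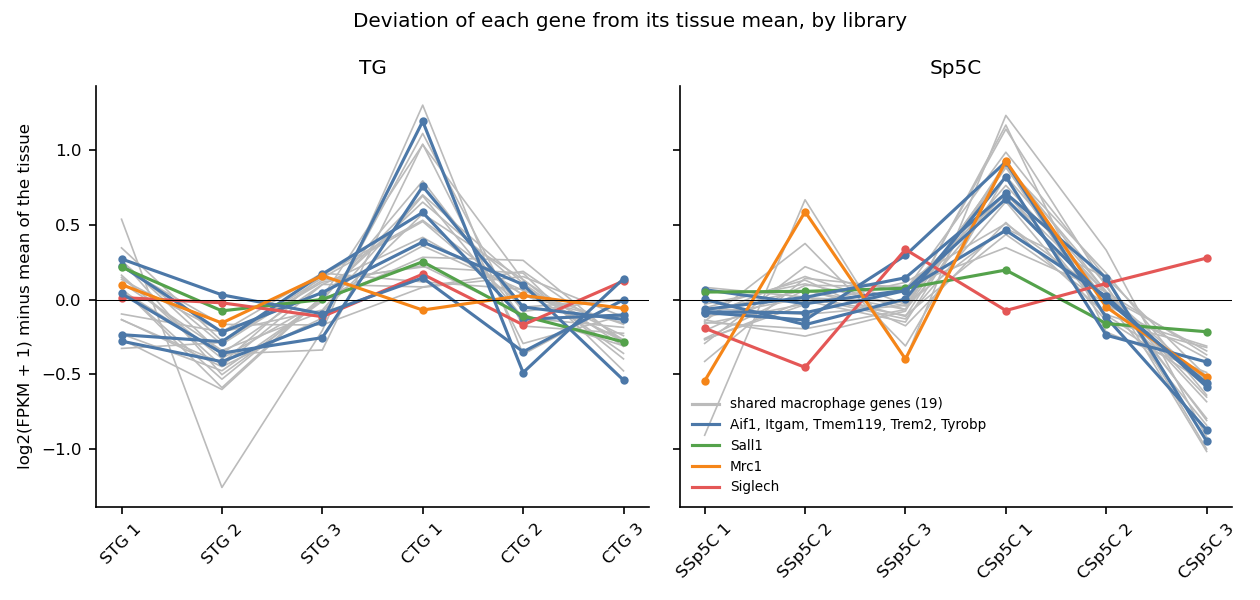
Deviation of log2(FPKM + 1) from the mean of the tissue (vertical axis) in each library (horizontal axis), in TG on the left and Sp5C on the right, with grey lines for 19 genes common to macrophages and coloured lines for 8 of the 9 genes (Cd163 is left out as too low). Lines join the values of one gene and show no order. In Sp5C every grey line is highest in CSp5C replicate 1 and lowest in CSp5C replicate 3, and Siglech does not follow.

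In Sp5C the libraries CSp5C replicate 1 and CSp5C replicate 3 stood on opposite sides for nearly all these genes. All 19 genes common to macrophages were highest in CSp5C replicate 1 and lowest in CSp5C replicate 3, which was so for 19.7% and 20.4% of all genes tested. Their summed level was 293 FPKM in the former, 79.0 in the latter and 128 to 151 in the other 4 libraries. Of 8 of the 9 genes (all but Cd163), 7 were highest in CSp5C replicate 1 and 6 were lowest in CSp5C replicate 3. These counts are of ranks and not of sizes. Sall1 is in both, at 8.08 and 5.83 FPKM with the next libraries at 7.34 and 6.09, whereas Aif1 stood at 7.90 and 1.57. Siglech went another way, being highest in SSp5C replicate 3 and 3.00 FPKM in CSp5C replicate 3, and Mrc1 was lowest in SSp5C replicate 1. The sums of 6 markers of central neurons and glia were 714 FPKM in CSp5C replicate 1, 668 in CSp5C replicate 3 and 664 to 782 in the other 4. Of these markers 3 were lowest in CSp5C replicate 1, against 18.1% of all genes. In CSp5C replicate 3, 2 were highest and 2 were lowest, against 21.6% and 20.4%. The border macrophage list summed to 14.1 FPKM in CSp5C replicate 1, 10.9 in SSp5C replicate 2 and 3.53 to 7.51 in the other 4. Without both libraries the log2 difference of C minus S was −0.18 for Trem2 and 0.11 for Tyrobp, the opposite sign for both, but these values set CSp5C replicate 2 alone against 3 libraries and assume that it varies like them.

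In TG, CTG replicate 1 was highest for 6 of the 8 genes and 14 of the 19 common genes, against 22.8% of all genes. Its summed level of common genes was 292 FPKM, against 116 to 207 in the other 5. The same library held the highest level of neutrophil genes, with S100a8 at 278 FPKM, and of monocyte genes (35.3 FPKM summed, against 6.78 to 15.7). The part of these cells in the levels of Itgam, Tyrobp and Tmem119 in CTG replicate 1 was not tested. Mrc1 was not among its high genes, at 8.02 FPKM, the second lowest TG value.

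How the genes moved together was described as Pearson's r of deviations from the tissue mean over the 12 libraries, which share library preparation and scaling. The highest pair among 8 genes was Tyrobp with Tmem119 (r = 0.893), followed by Itgam with Tmem119 (0.890) and Aif1 with Tyrobp (0.859). The lowest was Siglech with Mrc1 (−0.53), and Siglech had r under 0.5 with each of the other 7. Among all genes, those most like Mrc1 were Ehd2 (0.955), Dcn, decorin of fibroblasts (0.950), and Abca9 (0.935). Those most like Itgam were Plcg2 (0.965), a phospholipase, Ncf1 (0.962), a subunit of the phagocyte oxidase, and Cd37 (0.951). Those most like Tmem119 were Cyba (0.963), another oxidase subunit, Enox2 (0.936) and Pus7l (0.929), and those most like Tyrobp were Mob1a (0.950), Cyth4 (0.942) and Tmsb4x (0.937). Aif1 was most like Zfp536 (0.989), Man1c1 (0.942) and Unc93b1 (0.937), and Trem2 like Cttnbp2nl (0.912), Cd300c2 (0.912) and Tlr1 (0.911). Sall1 was most like Ddost (0.961), Mamdc2 (0.955) and Gatm (0.941), and Siglech like Ociad2 (0.921), Msantd3 (0.894) and 2310011J03Rik (0.854).

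The split of Aif1 over its transcripts differed between libraries and only partly followed the tissue, while the gene total did not pass the test between tissues. In Sp5C the transcript Aif1-203 (ENSMUST00000172693) made up 98.8% of the gene's FPKM, and Aif1-201 (ENSMUST00000025257) was listed at 0 in all 6 libraries. In TG, Aif1-201 stood at 0.0413, 2.62 and 0 FPKM in STG and 5.07, 2.91 and 2.24 in CTG. Aif1-203 stood there at 4.38, 0.0166 and 3.69 FPKM in STG and 0.0734, 0.807 and 0.00241 in CTG. STG replicates 1 and 3 thus resembled Sp5C, whereas STG replicate 2 and all CTG libraries listed mostly Aif1-201.

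**Figure D4:**
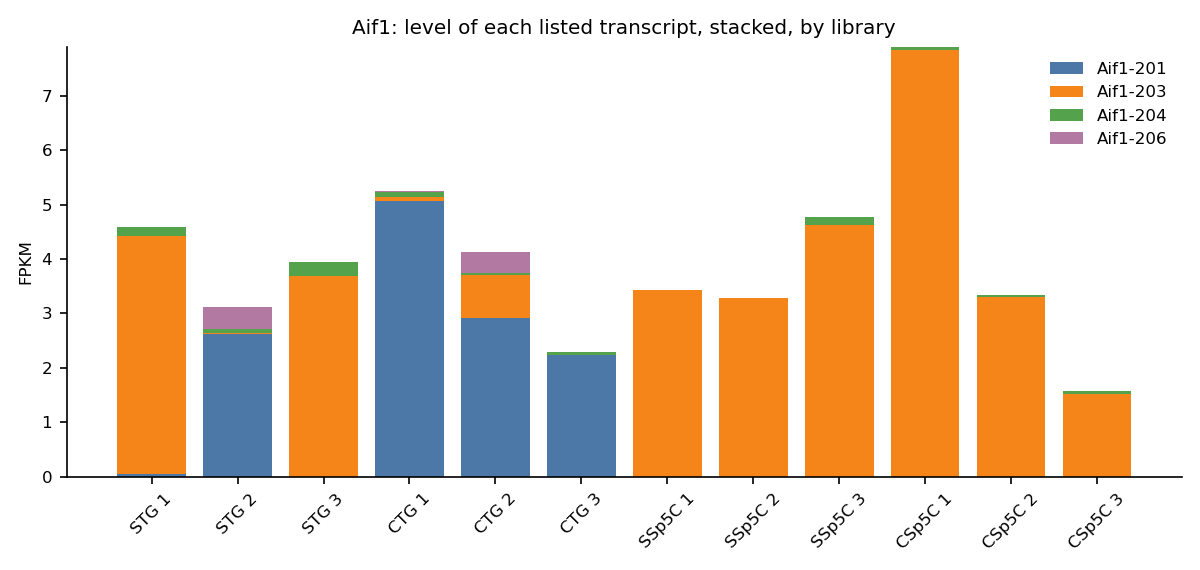
FPKM of the 4 listed Aif1 transcripts (vertical axis, stacked from 0) in each of the 12 libraries (horizontal axis). Aif1-203 fills nearly the whole bar in all 6 Sp5C libraries and in STG replicates 1 and 3, and Aif1-201 fills most of the bar in STG replicate 2 and the 3 CTG libraries.

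At the transcript level Aif1-201 was higher in TG (log2 difference 1.36, SE 0.318, limma adjusted p = 0.00445 over 20082 transcripts) and Aif1-203 lower (−1.28, SE 0.451, adjusted p = 0.0361). Aif1-201 was listed at 0 in Sp5C and passed the filter only through TG, so its direction was set by the filter. It could be tested in 8 of the 12 fits that leave out 1 library, with log2 differences of 1.36 to 1.52. The call of Aif1-203 was lost without CTG replicate 1 or 3, CSp5C replicate 1 or 2, or any 1 of the SSp5C libraries (adjusted p up to 0.0797), and its log2 difference was −0.89 without STG replicate 2. Per GENCODE M21 both hold the same coding exons of 441 bases and differ in their 5′ exons, with Aif1-201 starting at 35173278 and Aif1-203 at 35172819 on chromosome 17, so their annotated protein is the same. A listed 0 may also stand for an estimate that failed, and the share given to overlapping transcripts rests on the upstream assignment. Over all 26 transcripts, 9 could be tested, of which 2 were higher in TG (Aif1-201 and the single transcript of Mrc1) and 3 lower (Aif1-203, the main transcript of Tmem119 and the single one of Sall1). Over all transcripts 53.5% were called, 26.6% higher and 27% lower. Siglech had 6 listed transcripts and none of them reached the filter. Itgam's level was split over several transcripts with no constant main one, with ENSMUST00000120355 between 0.0271 FPKM (CTG replicate 2) and 5.51 (CSp5C replicate 1).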

How the data were processed

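The libraries were made from total RNA extracted with Trizol, with ribosomal RNA removed (Ribo-zero) and strand kept (NEBNext Ultra Directional), per the labels' protocols. The submitters' processing notes name HISAT2, StringTie 1.3.1 and Cuffdiff 2.1.1, and the sources used here name no build or annotation. Per transcript the authors deposited FPKM values, and 26 transcripts belonged to the 9 genes. Transcripts were summed to genes, 1 was added and the log2 taken. Genes with a mean of at least 1 FPKM in the libraries compared entered limma 3.58.1 (R 4.3.3, trend and robust, two-sided, Benjamini-Hochberg adjustment over all genes, threshold 0.05). TG against Sp5C and the difference of effects used all 12 libraries, and each comparison of C with S used the 6 of its tissue. Transcripts were tested the same way. The test was also run on simulated data with independent normal noise. Those data lack shifts shared by many genes of a library, so that run cannot give the error rate here. The genes and lists were chosen with earlier results of these data known. All 9 genes, up to 4 genes per list with the smallest p between tissues, further members of those lists given as examples after their values were seen, and the 3 genes most like each member were named. Coordinates are GENCODE M21, matched by identifier (26 of 26 transcripts). Alternatives without several libraries together were added after the data were seen, apart from that without CTG replicates 1 and 3.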

Additional observations from a re-analysis of the deposited data

Results flagged for a closer look

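Some libraries lay far from the other 5 of their tissue, by Dixon's gap test for 6 libraries, at a level where chance marks about 1 in 20 sets of 6. Of 44 sets tested 10 were marked, and of the 18 that were single genes 5 were. In TG, Cd163 stood at 1.49 FPKM in STG replicate 3, with the next library at 0.0561, and Tyrobp and Itgam stood at 16.9 and 7.51 FPKM in CTG replicate 1. The same library held the highest sums of monocyte genes (35.3 FPKM) and of neutrophil and bone marrow genes (889 FPKM). The pituitary genes summed to 2849 FPKM in STG replicate 1. In Sp5C, Cd163 stood at 0.661 FPKM in SSp5C replicate 2, and Trem2 at 4.09 FPKM in CSp5C replicate 1. In that library the genes common to macrophages summed to 293 FPKM and those of lymphocytes and mast cells to 1.84 FPKM, with the next library at 151 and 0.779. These are values of single libraries, and their causes were not tested.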

How the results depend on the processing

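The calls of Sall1, Tmem119, Siglech and Mrc1 between the tissues held in every alternative in which the gene was tested, with log2 differences of −3.62 to −2.35, −1.91 to −1.31, −2.15 to −1.08 and 1.65 to 2.33. With a mean of at least 5 FPKM 0 of the 9 genes were lower in TG, since fewer genes were tested, and with S libraries alone 5 were (Tyrobp −0.34, adjusted p = 0.0351, and Itgam were added). At that stricter filter the homeostatic microglia list had 0 higher and 1 lower, the border list 1 higher and the common macrophage list 2 higher, and with no filter the border list had 8 higher and the transcripts 5 lower. The common list had 3 higher and 0 lower with the highest transcript of each gene, 3 and 1 without CTG replicates 1 and 3, 2 and 0 without STG replicate 1 as well, and 1 and 0 in the C libraries alone, where the Trem2 and Tyrobp pathway had 1 lower. Aif1 between tissues was −0.011 with quantile normalization and −1.28 with its highest transcript (adjusted p = 0.0294), Tyrobp 0.11 in the C libraries alone, and Hbb-bt −0.09 without CSp5C replicates 1 and 3 and −0.49 in the S libraries alone. Why these moved was not tested.

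For the letter, 0 of the 9 genes were called under any alternative, but the few calls over all genes were unstable. In TG, higher calls numbered 0 with at least 5 FPKM, with the replicate block and in the fit of 12 libraries, 2 with quantile normalization, and 3 with the highest transcript (3 lower). In Sp5C, higher calls numbered 0 with no filter, at least 5 FPKM, no trend, the replicate block or 12 libraries. Lower calls there numbered 5 with a pseudocount of 0.1 or no filter, 1 with the highest transcript, and 0 with at least 5 FPKM, the replicate block or 12 libraries. With the highest transcript, C minus S in Sp5C was −0.017 for Trem2, −0.17 for Itgam and −0.31 for Siglech, and the difference of effects −1.19 for Aif1. The difference of effects of Sall1 was −0.16 and −0.023 with pseudocounts of 0.1 and 0.5.

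Same-numbered S and C libraries correlated in their deviations at −0.151 to 0.191 in TG and −0.127 to 0.103 in Sp5C. STG and SSp5C did so at −0.197 to −0.0227, and CTG and CSp5C at 0.228 to 0.383. Libraries of different numbers were not compared, so these values cannot show whether a shared number ties libraries together. The replicate block joined all libraries of the same number in a fit, so it does not test a tie between CTG and CSp5C alone. With this block the tissue contrast kept 1 gene higher and 3 lower, and 0 of the genes tested were called for the letter.

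With single libraries left out, or the groups of libraries named above together, the common macrophage list had 2 to 10 higher and 0 to 2 lower. All-gene calls ranged from 0 to 6 higher and 0 to 1 lower in TG, 0 to 8 and 0 to 9 in Sp5C, and 0 to 3 and 0 to 2 in the difference of effects, where the lists had 0 to 1 higher. Transcript calls ranged from 1 to 2 higher. Log2 differences that changed sign between tissues ranged from −0.19 to 0.26 for Aif1, −0.34 to 0.070 for Tyrobp, −0.38 to 0.51 for Hbb-bt, −0.34 to 0.023 for the main Trem2 transcript and −0.39 to 0.040 for the main Tyrobp transcript. For the letter in TG they ranged from −0.42 to 0.0026 for Trem2, −0.24 to 0.22 for Aif1, −0.21 to 0.94 for Itgam and −0.017 to 0.37 for Tmem119. In Sp5C they ranged from −0.27 to 0.35 for Trem2, −0.52 to 0.38 for Aif1, −0.17 to 0.59 for Mrc1, −0.43 to 0.39 for Tyrobp, −0.24 to 0.37 for Itgam and −0.31 to 0.21 for Tmem119. In the difference of effects they ranged from −0.53 to 0.14 for Trem2, −0.41 to 0.48 for Aif1, −0.66 to 0.098 for Mrc1, −0.013 to 0.81 for Tyrobp, −0.28 to 0.87 for Itgam, −0.12 to 0.15 for Sall1 and −0.34 to 0.050 for Siglech. Without CTG replicates 1 and 3, or CSp5C replicates 1 and 3, the C libraries of that tissue are 1, assumed to vary like the others. Depth is unknown, so low genes such as Cd163 and Siglech carry an error that cannot be given.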
